A study of Mus musculus with 21 samples.

Results

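MHC class I presentation and the checkpoint ligand PD-L1 were examined through 10 genes chosen by symbol: H2-K1, H2-D1, B2m, Tap1, Tap2, Tapbp, Psmb8, Psmb9, Nlrc5 and Cd274. All 10 were among the 34478 genes of the deposited table, and all 10 passed the filter on low values, as did 19300 genes in total that reached a normalized count of 10 in 3 samples or more. RNA came from 6 primary cell lines, numbered #3, #4, #6, #7, #9 and #10, derived from pancreatic tumours of mice that were Ptf1awt/Cre;Kraswt/LSL-G12D;Trp53loxP/loxP, in which Cre is driven from the Ptf1a locus. Parental cells had never received a drug (6 samples). Resistant cells had been taken through rising doses of the MEK inhibitor trametinib and were kept in 100 times their IC50, the dose that inhibits growth by 50% (6 samples). P12 cells were resistant cells grown for 12 passages without trametinib (6 samples), and P5 cells, from lines #3, #7 and #9, are named for 5 drug-free passages (3 samples). For P5 of lines #7 and #9 a label of the samples gives 12 passages in place of 5, so their time without the drug is uncertain. Each line was sequenced once per state, and the lines are the replicates.

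Class I molecules display peptides from inside the cell to CD8 T cells. The proteasome, with the inducible subunits encoded by Psmb8 and Psmb9, cuts proteins into peptides, the TAP transporter carries these into the endoplasmic reticulum, tapasin helps to load them, and the heavy chain reaches the surface bound to beta-2-microglobulin. Interferons and the transactivator NLRC5 raise this set of genes, loss of class I is a known route of immune escape in pancreatic cancer, and PD-L1 on tumour cells restrains T cells through PD-1.

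Values are normalized counts, gene-level estimates normalized by the authors, and are not corrected for differences in length between genes. From the step between low values, each sample was estimated to hold 24.1 to 42.6 M reads. A floor of 3 reads was then worth 2.31 to 4.06 normalized counts depending on the sample, and this covers counting error alone. Fold changes are differences of log2(normalized count + 1) from a limma fit over all 4 states. Genes are named as called where the adjusted p was under 0.01 and the log2 fold change exceeded 1 in size. Because the same lines recur in every state, the fit was repeated with the cell line as a block. Values of that fit are given beside those of the first for part of the results. The sequencer models named for the study are not assigned to samples, so values within a sequencing batch could not be given.

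The labels were first checked against marker genes. Etv4, a transcription factor gene induced by ERK signalling, had a lowest, median and highest value of 1931, 2913 and 6573 in parental, 0, 1.45 and 4.58 in resistant and 4827, 5613 and 8573 in P12 cells. The resistant samples were the low ones, without overlap with any sample of the other states. Of 11 ERK output genes tested, 10 were called lower in resistant than in parental cells (median log2 fold change -5.88), 9 higher in P12 than in resistant cells and 8 higher in P5 than in resistant cells, against 11, 11 and 8 with the block. The epithelial keratin gene Krt8 had values of 546, 79653 and 92917 in parental cells, the lowest being line #9, and Cdh1, encoding E-cadherin, 816, 30049 and 53229, again with line #9 lowest. Epcam, a further epithelial marker, was listed at 0 in 20 of 21 samples. Vim, encoding vimentin, lay between 17149 and 143805 over all samples.

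Markers of other cells were low in most samples, with high values of Csf1r, Tek and Kdr in some resistant samples. The leukocyte marker Ptprc lay between 3.02 and 20 normalized counts, and Cd3e was at 0 in 16 of the 21 samples. The 8 leukocyte markers in the table summed to a lowest, median and highest value of 143, 209 and 281 in parental, 208, 321 and 2902 in resistant and 217, 232 and 272 in P12 cells, and to between 210.1 and 442 in P5 cells. Cd68 was the most abundant of them by mean over the 21 samples, and the highest sum was that of resistant line #10, where Csf1r alone held 2530.0. Of the 4 leukocyte markers tested, 0 were called between resistant and parental cells in the limma fit, 2 had an unadjusted p under 0.05 and the median log2 fold change was -0.057. The 5 endothelial markers summed to 37.1, 55.4 and 166 in parental, 15.8, 383 and 2753 in resistant and 61.1, 91.3 and 233 in P12 cells, with resistant lines #4 and #6 highest. In resistant line #4, Tek held 1132 and Kdr, a VEGF receptor gene, 865, and in resistant line #6 Tek held 2512 and Kdr 214. Tek, a receptor tyrosine kinase and the most abundant of them by mean over the 21 samples, rose by 5.90 (SE 1.14, adjusted p = 0.002) on the log2 scale in resistant cells, 1 of 4 tested (median 0.38), and fell by 5.84 in P12 against resistant cells (SE 1.14, adjusted p = 0.00427). The rise was lost without line #4, #6 or #10 (adjusted p up to 0.0171) and the fall without line #3, #4, #6 or #10 (up to 0.0345), and both in the compared states alone with or without the block (up to 0.0345). The fall was also lost when a mean of at least 100 was required. Pecam1 went the other way, higher in P12 than in resistant cells in 6 of 6 lines, by 1.39 (SE 0.33, adjusted p = 0.015), and was called with the block (adjusted p = 0.00464). The endothelial marker Cdh5 was at 0 in 9 of 21 samples. The part of such cells in the class I values was not tested, and in bulk RNA fewer cells of a type and less RNA per cell cannot be told apart.

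In resistant cells the class I pathway was higher than in parental cells at several steps, while Cd274 was not called in either direction. Of the 10 genes, 3 were called higher, B2m, Tap2 and Tapbp, and 0 lower, against 5.3% of the 19300 genes called in either direction and 2.57% called higher. The block raised this to 7 of 10, all higher (H2-D1, Tap1, Psmb8 and Psmb9 in addition), against 10.5% of all genes. A fit of the compared states alone with the block called 3 of 10, Tap1, Tap2 and Tapbp, beside 722 of the 19300 genes. In that fit B2m, H2-D1, Psmb8 and Psmb9 were not called (adjusted p = 0.03, 0.0157, 0.0178 and 0.0201). Leaving out 1 line gave between 2 and 5 called genes of the 10. The median log2 fold change of the 10 genes was 2.185, beside -0.0049 over all genes tested. For Tap1, Tap2, Tapbp and Psmb9 the 6 resistant and 6 parental samples did not overlap. How many of all genes tested show this was not counted, so it does not set these genes apart from others.

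**Figure D1:**
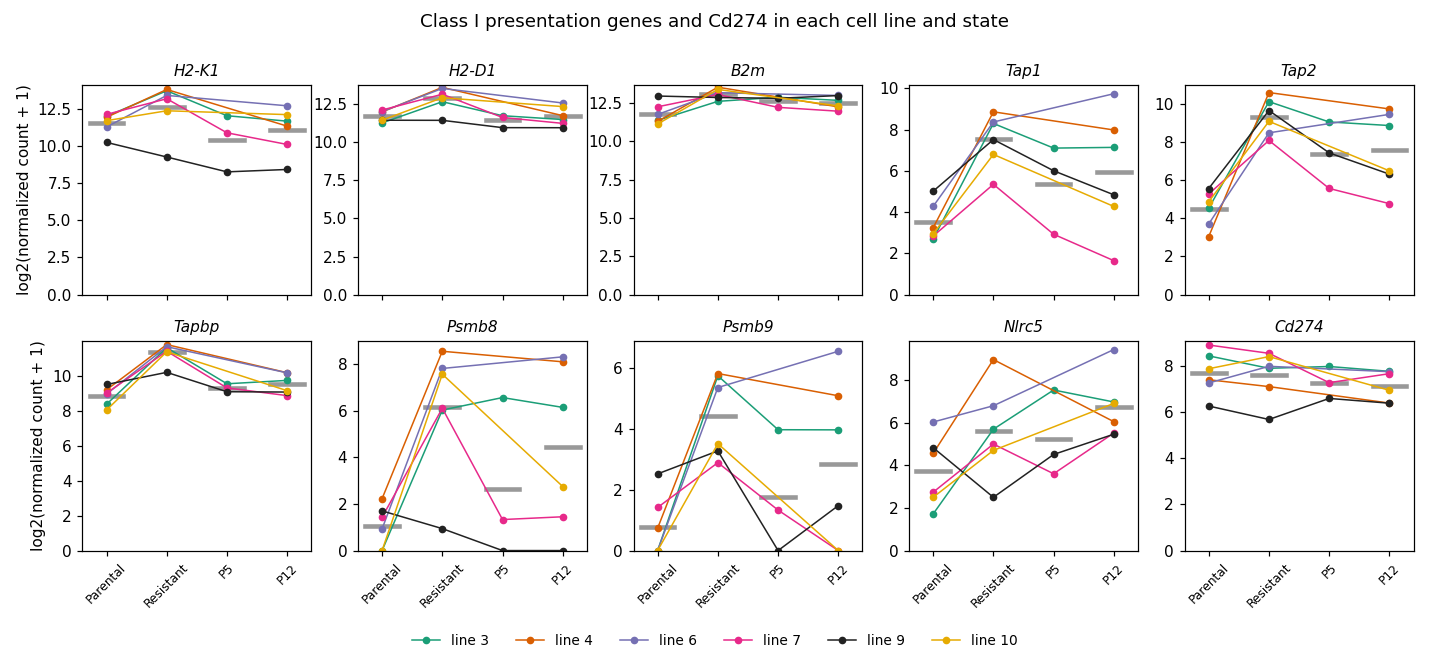
Level of each of the 10 genes as log2(normalized count + 1) on the vertical axis against the 4 states on the horizontal axis, where each coloured point is 1 sample, thin lines join the states of 1 cell line (lines #4, #6 and #10 have no P5 sample) and grey bars are means over the samples of a state. Tap1, Tap2, Tapbp and Psmb9 show resistant samples above all parental samples, and Cd274 shows no such separation.

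H2-K1 and H2-D1 encode the class I heavy chains K and D. H2-K1 had a lowest, median and highest normalized count of 1216, 3638 and 4494 in parental, 614, 10107 and 14366 in resistant and 343, 2936 and 6711 in P12 cells, and of 4222, 1902 and 307 in P5 cells of lines #3, #7 and #9. Line #9 was the lowest sample in every state, and H2-K1 was higher in the resistant than in the parental sample in 5 of 6 lines, with line #9 at 1216 in parental and 614 in resistant cells. The states overlapped, and the log2 fold change of resistant minus parental, 1.07 (SE 0.80, adjusted p = 0.402), was not called, nor with the block (adjusted p = 0.0679). H2-K1 was lower in P12 than in resistant cells in 6 of 6 lines, with a log2 fold change of -1.56 (SE 0.80, adjusted p = 0.292) that was not called either (adjusted p = 0.0214 with the block).

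H2-D1 had values of 2448, 3404 and 4400.2 in parental, 2755, 8361 and 12319 in resistant and 1969, 3134 and 6061 in P12 cells, and of 3398, 3139 and 1975 in P5 cells of lines #3, #7 and #9. The resistant sample was higher in 5 of 6 lines, and in line #9 the values were 2769 in parental and 2755 in resistant cells, so the states overlapped. Resistant minus parental cells gave a log2 fold change of 1.17 (SE 0.33, adjusted p = 0.0222), which was not called, but was with the block (adjusted p = 0.00194) and without line #9 (log2 fold change 1.41, adjusted p = 0.00252), the adjusted p running from 0.00194 to 0.0867 over the 17 alternatives. P12 minus resistant gave -1.16 (SE 0.33, adjusted p = 0.0417), lower in 6 of 6 lines, and was called with the block (adjusted p = 0.00399) and without line #9 (adjusted p = 0.00826), with a range of 0.00399 to 0.169 over the 17 alternatives. This difference was not called in the compared states alone with the block (adjusted p = 0.0237). P12 and parental cells differed by 0.011 (SE 0.33, adjusted p = 0.992) on the log2 scale. Class I heavy chain genes are similar to one another in sequence and vary between mouse strains, so the assignment of reads between H2-K1, H2-D1 and related genes is uncertain.

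B2m encodes the light chain shared by all class I molecules. Its normalized counts were 2257, 3072 and 8008 in parental, 6295, 8943 and 11940.3 in resistant and 4030.1, 5849 and 8226 in P12 cells (lowest, median and highest), and 7575, 4797 and 7219 in P5 cells of lines #3, #7 and #9. The highest parental sample was line #9, at 8008, above its own resistant sample at 7497, and in the other 5 lines the resistant sample was the higher one. B2m rose by 1.31 (SE 0.27, adjusted p = 0.00359) on the log2 scale in resistant cells. The call was lost in fits of the compared states alone (adjusted p = 0.0124) and when line #3, #4, #6 or #10 was left out (adjusted p between 0.0174 and 0.0295), and the adjusted p ran from 0.000742 to 0.03 over the 17 alternatives. P12 cells lay between both states, with -0.57 (SE 0.27, adjusted p = 0.254) against resistant and 0.74 (SE 0.27, adjusted p = 0.206) against parental cells, neither called. The states thus ranked resistant, P5, P12 and parental by mean log2 value, and of the neighbours in this order none passed a test, P5 against P12 not being tested. The P5 mean covers lines #3, #7 and #9 alone, so line and state are mixed in this ranking.

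Tap1 and Tap2 encode the subunits of the peptide transporter. Tap1 had normalized counts of 5.46, 7.59 and 31.3 in parental and 39.6, 247 and 463 in resistant cells (lowest, median and highest). All resistant samples lay above all parental samples, the lowest resistant sample being line #7 and the highest parental sample line #9. Tap1 had a log2 fold change of 4.03 (SE 1.06, adjusted p = 0.0153) that was not called, but was with the block (adjusted p = 0.00123), in a fit of the compared states alone (adjusted p = 0.00176) and without line #7 (adjusted p = 0.00393), the range being 0.00123 to 0.0737 over the 17 alternatives. In P12 cells Tap1 stood at 139.6, 251, 852, 2.13, 27.6 and 18.3 in lines #3, #4, #6, #7, #9 and #10, in that order. Of these, lines #3, #4 and #6 were above every parental sample, line #6 above every resistant sample, and line #7 under the floor. Tap1 stood at 136, 6.6 and 63.1 in P5 cells of lines #3, #7 and #9. P12 minus resistant gave -1.59 (SE 1.06, adjusted p = 0.449) and P12 minus parental 2.43 (SE 1.06, adjusted p = 0.279) on the log2 scale, and neither was called.

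Tap2 had normalized counts of 7.23, 25.1 and 46 in parental and 268, 667 and 1528 in resistant cells. The samples did not overlap, and the resistant sample was higher in 6 of 6 lines, by between 2.80 (line #7) and 7.54 (line #4) on the log2 scale. Tap2 rose by 4.83 (SE 0.79, adjusted p = 0.00057) in resistant cells and stayed called throughout, with an adjusted p of 0.000213 to 0.00505 over the 17 alternatives. In P12 cells Tap2 stood at 461, 843, 692, 26.2, 78.2 and 88.3 in lines #3, #4, #6, #7, #9 and #10, in that order, and at 525, 46.1 and 170.3 in P5 cells of lines #3, #7 and #9. Line #6 was the only line with more Tap2 in P12 than in resistant cells, and line #7 the only one with less in P12 than in parental cells. P12 minus resistant gave -1.73 (SE 0.79, adjusted p = 0.229) and P12 minus parental 3.10 (SE 0.79, adjusted p = 0.0747), and neither was called, nor with the block (adjusted p = 0.149 and 0.0307).

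Tapbp encodes tapasin, which holds empty class I molecules next to the transporter. Its normalized counts were 262, 503 and 722 in parental, 1169.7, 2907 and 3519 in resistant and 464, 707 and 1151 in P12 cells (lowest, median and highest), and 743, 630.2 and 542 in P5 cells of lines #3, #7 and #9. Every resistant sample was above every sample of the other states, and line #9 was the lowest resistant sample by a wide margin. Tapbp rose by 2.49 (SE 0.30, adjusted p = 4.23e-05) on the log2 scale in resistant cells, higher in 6 of 6 lines, and was called in all 17 alternatives. In P12 cells Tapbp fell relative to resistant cells, with a log2 fold change of -1.81 (SE 0.30, adjusted p = 0.00149), lower in 6 of 6 lines. This call was lost in a fit of the compared states alone (adjusted p = 0.013) and without line #3 (adjusted p = 0.0127) or line #7 (adjusted p = 0.0137), within a range of 0.000736 to 0.0137 over the 17 alternatives. P12 and parental cells differed by 0.68 (SE 0.30, adjusted p = 0.291), which was not called. By mean log2 value resistant cells came first and P12, P5 and parental cells followed. P12 and parental cells had no called difference, nor had P5 and parental cells. The P5 mean covers lines #3, #7 and #9 alone, so line and state are mixed in this order. In these lines P12 minus P5 was 0.19, -0.44 and -0.019 on the log2 scale.

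Psmb8 and Psmb9 encode catalytic subunits that replace their constitutive counterparts in the immunoproteasome. Psmb8 had normalized counts of 0, 1.3 and 3.69 in parental cells, with 5 of 6 samples at or under the floor, and 0.922, 129 and 377 in resistant cells. Line #9 was the lowest resistant sample, itself under the floor, and the other 5 resistant samples were above all parental samples. Psmb8 had a log2 fold change of 5.13 (SE 1.50, adjusted p = 0.026) that was not called, but was with the block (adjusted p = 0.00437), in a fit of the compared states alone (adjusted p = 0.00929) and without line #9 (adjusted p = 0.00379), with a range of 0.00379 to 0.103 over the 16 alternatives. Since parental values were near the floor its size depends on the pseudocount, and it was 5.57 with 0.5 and 3.39 with 8. In P12 cells Psmb8 stood at 70.1, 275, 319, 1.74, 0 and 5.73 in lines #3, #4, #6, #7, #9 and #10, in that order, and at 94.2, 1.52 and 0 in P5 cells of lines #3, #7 and #9.

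Psmb9 had normalized counts of 0, 0.332 and 4.73 in parental cells, again with 5 of 6 samples at or under the floor, and 6.39, 25.1 and 55.1 in resistant cells. No resistant sample was as low as the highest parental sample, line #9. For Psmb9 the log2 fold change of 3.65 (SE 1.04, adjusted p = 0.023) was not called, but was with the block (adjusted p = 0.00893) and in a fit of the compared states alone (adjusted p = 0.00459), with a range of 0.00459 to 0.096 over the 16 alternatives. Its size was 4.26 with a pseudocount of 0.5 and 1.75 with 8. In P12 cells Psmb9 stood at 14.6, 32.8, 92.2, 0, 1.78 and 0 in lines #3, #4, #6, #7, #9 and #10, in that order, so that it was at or under the floor in lines #7, #9 and #10 and above it in the other lines. Psmb9 stood at 14.6, 1.51 and 0 in P5 cells of lines #3, #7 and #9. Neither Psmb8 nor Psmb9 was called in P12 against resistant or parental cells (adjusted p = 0.588 and 0.281 for Psmb8, 0.439 and 0.352 for Psmb9).

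**Figure D2:**
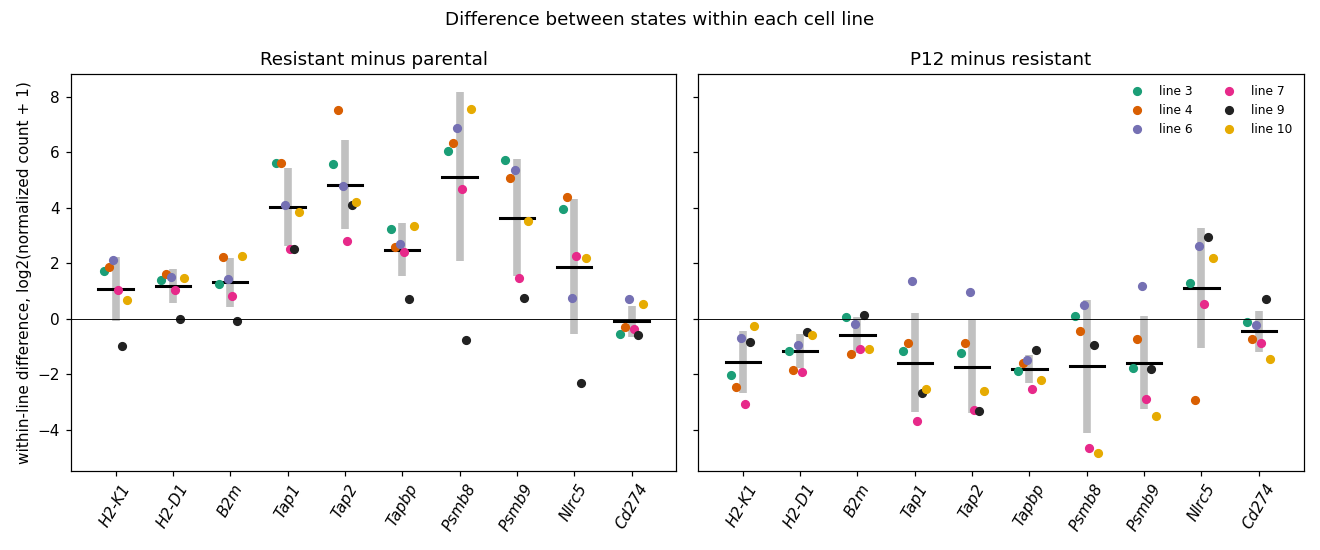
Difference of log2(normalized count + 1) between 2 states within each cell line, resistant minus parental on the left and P12 minus resistant on the right, for the 10 genes on the horizontal axis, where each coloured point is 1 line, black bars are means over 6 lines and grey bars 1 SD to either side. Tapbp lies above 0 in 6 of 6 lines on the left and below 0 in 6 of 6 lines on the right, and Nlrc5 has points on both sides of 0 in both plots.

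Nlrc5 encodes the transactivator that binds class I promoters. Its normalized counts were 2.29, 14.1 and 64.3 in parental, 4.65, 40.8 and 496 in resistant and 43, 91.8 and 688 in P12 cells, and 184, 11.1 and 21.7 in P5 cells of lines #3, #7 and #9. The highest sample of all was P12 of line #6, followed by resistant line #4, and all states overlapped. Resistant minus parental cells gave 1.88 (SE 1.00, adjusted p = 0.222) on the log2 scale, not called, with 5 of 6 lines higher and line #9 at -2.33. By mean log2 value P12 cells came first, ahead of resistant, P5 and parental cells, the P5 mean covering lines #3, #7 and #9 alone. P12 was above parental in 6 of 6 lines. With the block P5 stood above resistant cells, by 0.47. The difference of P12 minus parental, 2.99 (SE 1.00, adjusted p = 0.159), was not called either (adjusted p = 0.0459 with the block), nor was P12 minus resistant, 1.11 (SE 1.00, adjusted p = 0.6).

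Cd274 encodes PD-L1. Its normalized counts were 75.3, 199.8 and 475 in parental, 50, 243 and 370.3 in resistant and 82.1, 161 and 215 in P12 cells (lowest, median and highest), and 249, 153 and 94.9 in P5 cells of lines #3, #7 and #9. Line #9 was lowest in the parental, resistant, P5 and P12 states, and the states overlapped throughout. For Cd274 the log2 fold change of resistant minus parental was -0.088 (SE 0.49, adjusted p = 0.933), with a 95% interval from -1.12 to 0.94 and 2 of 6 lines higher. P12 minus resistant gave -0.45 (SE 0.49, adjusted p = 0.681) and P12 minus parental -0.54 (SE 0.49, adjusted p = 0.628), and none of these differences was called. With the block the SE of resistant minus parental was 0.30 and the interval ran from -0.73 to 0.55, and without line #3 or line #9 the estimate was above 0, at 0.0019 and 0.011.

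After 12 drug-free passages the pathway as a whole showed few called differences. Against resistant cells 1 of 10 genes was called, Tapbp, and it was lower, beside 2.13% of all genes called and 0.85% called lower. The block gave 2 of 10, H2-D1 and Tapbp, beside 4.52% of all genes. In the compared states alone with the block 1 of 10 was called, Tapbp, beside 291 of the 19300 genes. H2-D1 was not called there (adjusted p = 0.0237). Against parental cells 0 of 10 were called, beside 0.114% of all genes, and 6 of the 10 had an unadjusted p under 0.05 in the limma fit, B2m, Tap1, Tap2, Tapbp, Psmb8 and Nlrc5, all of them higher in P12, beside 15.3% of all genes. The fit with the block also called 0 of 10, with 7 at an unadjusted p under 0.05, beside 23.8% of all genes. The median log2 fold change was -1.57 for P12 minus resistant and 1.40 for P12 minus parental cells, beside 0.022 and 0.028 over all genes. These comparisons share samples with each other and with resistant minus parental.

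P5 cells, with 3 samples, gave 1 call in 10 against resistant cells, Tapbp at -2.03 (SE 0.37, adjusted p = 0.00792), beside 0.378% of all genes. It was not called with the block (adjusted p = 0.0119), nor without any 1 line, nor when P5 of lines #7 and #9, whose labels conflict, was left out (adjusted p = 0.269, within 0.00627 to 0.278 over the 17 alternatives). Against parental cells 0 of 10 genes were called, beside 0.0259% of all genes, and 2 of the 10 had an unadjusted p under 0.05 in the limma fit, B2m and Tap2, both higher in P5, against 4 in the fit with the block, which called 0 as well. Of all genes, 10.4% had such a p in the former fit and 14.4% in the latter.

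The genes differed in what their levels followed. Over the 18 parental, resistant and P12 samples, the state held 80.5% of the sum of squares of log2 Tapbp and 70.8% of Tap2, against 7.61% and 6.55% for the cell line. For Cd274 the line held 75.5% and the state 7.59%, and for H2-K1 60.1% and 20.6%. B2m stood at 57% for the state, and H2-D1, Tap1, Psmb8, Psmb9 and Nlrc5 between 36.3% and 48.3%. These shares are a description without a test.

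Over the 21 samples, which share 6 lines, the log2 values of Tap1 correlated with those of Psmb9 at r = 0.90, those of Tap1 with Tap2 at 0.90, and those of H2-K1 with H2-D1 at 0.84. Among the 36 pairs without Cd274, r lay between 0.095 and 0.90 with a median of 0.67, and among the 9 pairs with Cd274 the median was 0.03, H2-K1 being highest at 0.65. Over the 6 within-line differences of resistant minus parental, the highest r of the 45 pairs was that of H2-D1 and Psmb8 at 0.98 and the lowest that of Tap2 and Cd274 at -0.092. Outside the 10 genes, the values most like their mean row z-score belonged to Rnf112 (r = 0.93), Srgap2 (r = 0.92), Csrp1 (r = 0.92), Tank (r = 0.91) and Abca9 (0.91), over 21 samples. Most like Cd274 were Ccdc68 (0.83), Plgrkt (0.82) and Vps13a (0.82), and most like Nlrc5 Ndst2 (0.83), Map3k6 (0.81) and Dock10 (0.81). Rnf112, a RING finger gene, had a mean of 0.112 normalized counts in parental, 1966 in resistant, 18.8 in P5 and 93.9 in P12 cells, and Csrp1 had means of 2696, 12720.4, 5046 and 6509.8 in the same order. Plgrkt, among those most like Cd274, had means of 1016, 1324, 1080.1 and 1189, and Map3k6, among those most like Nlrc5, 322, 691, 833 and 1028. These genes were picked for their likeness, so no test is given.

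7 of the genes lie on chromosome 17 in GRCm38.p6, the RefSeq build used here. Tapbp lies at chr17:33919478-33929290, H2-K1 at chr17:33996012-34000619, Psmb9 at chr17:34182030-34187330, Tap1 at chr17:34187556-34197225, Psmb8 at chr17:34198195-34201454, Tap2 at chr17:34204479-34216321 and H2-D1 at chr17:35263094-35267497. B2m lies at chr2:122147687-122153082, Nlrc5 at chr8:94434335-94527272 and Cd274 at chr19:29362107-29388095. Psmb9 and Tap1 are neighbours read in opposite directions, and their promoter windows overlap.

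Promoter windows of RefSeq, 250 bases before to 50 after a transcript start, were found for 8 of the 10 genes, Tap2 and Nlrc5 being without one. For H2-K1 and Cd274 that start lies 272 and 5331 bases inside the gene as placed above, and for the other 6 it is the start of the gene. The windows were searched on both strands for the core of an interferon-stimulated response element (GAAA, any 2 bases, GAAA), held by 3.44% of 32851 windows; GAANNGAAA, a shorter form, 7.52%; TTCNNNGAA, a gamma-activated site, 8.3%; GGGATTCCC, the NF-kB site of the class I enhancer, 0.353%; CCAAT, 37.4%; and TGACG, the core of a cyclic AMP response element, 20.8%. B2m held the first of these as GAAACTGAAA, and H2-K1 and H2-D1 held GAANNGAAA and GGGATTCCC. CCAAT was in 6 of 8 windows (H2-K1, H2-D1, B2m, Tap1, Tapbp and Psmb9), TGACG in 5 of 8 (H2-K1, H2-D1, B2m, Tap1 and Psmb9) and TTCNNNGAA in 1, Psmb8. A match is only the presence of these letters. Of the 5 windows that hold both CCAAT and TGACG, that of Psmb9 is left out because it overlaps that of Tap1, and those of both heavy chains, the light chain and a transporter subunit are shown 5' to 3' on the gene's strand, with the matches in capitals: H2-K1 at chr17:34000298-34000597 (minus strand), H2-D1 at chr17:35262844-35263143 (plus), B2m at chr2:122147437-122147736 (plus) and Tap1 at chr17:34187306-34187605 (plus).
H2-K1: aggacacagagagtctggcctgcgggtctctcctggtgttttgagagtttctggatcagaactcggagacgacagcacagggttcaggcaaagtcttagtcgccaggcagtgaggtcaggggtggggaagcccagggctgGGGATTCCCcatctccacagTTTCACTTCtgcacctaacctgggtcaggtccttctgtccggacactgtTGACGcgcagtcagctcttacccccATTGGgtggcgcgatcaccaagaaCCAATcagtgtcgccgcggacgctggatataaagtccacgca
H2-D1: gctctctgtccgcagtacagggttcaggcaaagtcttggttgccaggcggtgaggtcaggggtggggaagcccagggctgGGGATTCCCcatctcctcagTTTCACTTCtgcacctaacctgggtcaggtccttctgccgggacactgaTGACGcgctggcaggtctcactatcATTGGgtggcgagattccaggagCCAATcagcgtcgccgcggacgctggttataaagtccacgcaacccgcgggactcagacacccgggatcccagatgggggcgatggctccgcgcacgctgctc
B2m: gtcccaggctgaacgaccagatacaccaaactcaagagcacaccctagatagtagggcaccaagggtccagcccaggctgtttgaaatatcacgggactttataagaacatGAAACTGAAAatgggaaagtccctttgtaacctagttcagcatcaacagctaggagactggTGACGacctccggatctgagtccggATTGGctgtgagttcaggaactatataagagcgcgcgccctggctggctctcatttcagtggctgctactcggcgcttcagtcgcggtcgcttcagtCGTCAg
Tap1: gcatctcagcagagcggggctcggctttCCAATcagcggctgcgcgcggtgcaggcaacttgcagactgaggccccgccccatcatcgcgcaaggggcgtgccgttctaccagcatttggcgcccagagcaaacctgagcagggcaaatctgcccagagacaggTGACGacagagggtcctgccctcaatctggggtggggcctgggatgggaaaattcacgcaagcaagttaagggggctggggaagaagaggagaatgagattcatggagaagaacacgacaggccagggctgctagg

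Other genes of the pathway were compared between resistant and parental cells in 11 lists. Of all genes tested, 5.3% were called in this comparison, 2.57% were called higher and 29.2% had an unadjusted p under 0.05. In the lists 9 of 123 genes tested were called. With the block 17 of 123 were called, beside 10.5% of all genes. Of 14 class Ib and other heavy chain genes tested, 1 was called higher, H2-M3, which presents formylated peptides, at 2.36 (SE 0.48, adjusted p = 0.00289), and the median was 1.20. H2-Q6 was called as well with the block (adjusted p = 0.00786). Of 10 loading and trimming genes, among them those for calreticulin and ERAP1, 0 were called in the limma fit, with 6 at an unadjusted p under 0.05 and a median of 0.58. Of 4 partners of the immunoproteasome, 1 was called, Psme2, a subunit of the proteasome activator PA28, at 1.23 (SE 0.27, adjusted p = 0.00444), with a median of 0.30. Of 14 constitutive catalytic and core proteasome genes 0 were called in the limma fit, with 2 at an unadjusted p under 0.05 and a median of -0.037. H2-M3 was not called without line #6 or #10 (adjusted p up to 0.0173), and Psme2 was called without line #9 but not without any other line (up to 0.0351) nor in fits of the compared states alone.

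Upstream, of 18 regulators of class I transcription 0 were called between resistant and parental cells in the limma fit (7 at an unadjusted p under 0.05, median -0.054), and with the block Irf1 was called higher (adjusted p = 0.00737) and Irf8 lower (adjusted p = 0.00347), both interferon regulatory factors. Irf8 was higher in P12 than in resistant cells, by 5.09 (SE 1.07, adjusted p = 0.00717), where 4 of 6 resistant samples were listed at 0. This call was kept without line #6 and lost without any other line (adjusted p up to 0.0607), with no filter on low values, with a pseudocount of 8, in the compared states alone with or without the block, and without P5 of lines #7 and #9. Of 15 interferon receptor and JAK-STAT genes 1 was called, Ifnar2, a chain of the type I interferon receptor, at 1.31 (SE 0.22, adjusted p = 0.000736), with a median of 0.33. Of 24 interferon-stimulated genes 4 were called higher and 0 lower, with a median of 1.47. They were Ifi35 at 1.57 (SE 0.26, adjusted p = 0.000576), Gbp2 at 4.23 (SE 0.89, adjusted p = 0.00366), Ddx58, which encodes the RNA sensor RIG-I, at 1.98 (SE 0.45, adjusted p = 0.00623), and Ifit2 at 1.97 (SE 0.47, adjusted p = 0.00822). Without line #9 the calls of Gbp2, Ddx58 and Ifit2 held, and without any other line they were lost (adjusted p up to 0.0339, 0.0397 and 0.0459), while that of Ifi35 was kept in all 17 alternatives. In fits of the compared states alone with the block, Gbp2, Ddx58 and Ifit2 were not called (adjusted p = 0.0167, 0.0155 and 0.0156), nor was Ifnar2 (0.0124). Ifit2 was lost in 10 of 17 alternatives, among them no filter on low values, no trend, the compared states alone, and leaving out P5 of lines #7 and #9. Parp14 was called in addition with the block (adjusted p = 0.00749).

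Among 12 genes for other checkpoint and co-stimulatory ligands and enzymes, resistant cells had 1 called lower and 0 called higher. It was Ido1, which encodes a tryptophan-degrading enzyme, at -3.84 (SE 0.75, adjusted p = 0.00219), not called without line #10 (adjusted p = 0.0142). The median was 0.11, and Tnfsf9 was called lower with the block (adjusted p = 0.00064). Of 4 protein partners of PD-L1 and 5 NK ligand genes 0 were called in the limma fit, with 2 and 1 at an unadjusted p under 0.05 and medians of -0.18 and 0.072. Of 3 class II genes tested 1 was called, H2-DMb1, a subunit of the peptide exchange factor, at 2.70 (SE 0.63, adjusted p = 0.00708), with a median of 2.70. It was called without line #7 and not without any other line (adjusted p up to 0.05), nor with no filter on low values or in the compared states alone with or without the block, while the block with all states called all 3. H2-Aa and H2-Ab1, the class II chains themselves, were each at 0 in 17 of 21 samples. Cd74, the invariant chain, reached 2076 in 1 resistant sample and had a median of 42.4 in that state.

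Between P12 and resistant cells, 1 of 123 genes tested in the 11 lists of pathway genes above was called, Irf8, beside 2.13% of all genes called and 19.8% at an unadjusted p under 0.05. With the block 3 of 123 were called, beside 4.52% of all genes. For the 10 loading and trimming genes, 0 were called in the limma fit, 7 had an unadjusted p under 0.05 and the median log2 fold change was -0.60. For the 14 class Ib genes the values were 0, 2 and -0.68. For the 24 interferon-stimulated genes they were 0, 3 and -0.36, with Mx1 called higher with the block (adjusted p = 0.00553), and for the 3 class II genes 0, 1 and -1.80, with H2-DMb1 called lower with the block (adjusted p = 0.00604). Medians were -0.19 for the immunoproteasome partners, -0.12 for the constitutive catalytic and core proteasome, -0.06 for the regulators and -0.056 for interferon receptors and JAK-STAT. They were -0.032 for checkpoint ligands, -0.0033 for PD-L1 partners and 0.67 for NK ligands.

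Between P12 and parental cells 0 genes of the 11 pathway lists were called in the limma fit, with 24 of 123 at an unadjusted p under 0.05, nor in that with the block, with 37 of 123. Of all genes 15.3% and 23.8% had an unadjusted p under 0.05 in these fits. The median of the interferon-stimulated genes was 1.28, with 5 of 24 at an unadjusted p under 0.05, that of the class Ib genes 0.74, with 2 of 14, and that of the loading and trimming genes -0.098, with 1 of 10. P5 cells likewise had 0 called genes in these lists in the limma fit, with 23 of 123 at an unadjusted p under 0.05 against resistant and 12 of 123 against parental cells, beside 15.4% and 10.4% of all genes. Against parental cells their median was 0.91 for the interferon-stimulated genes, with 3 of 24 at an unadjusted p under 0.05.

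Cell state markers moved beside the class I genes. Sox9, a ductal transcription factor, fell by 3.06 on the log2 scale in resistant cells (SE 0.62, adjusted p = 0.0029) as 1 of 6 epithelial markers tested (median -2.91), and rose by 3.84 (SE 0.62, adjusted p = 0.00117) in P12 against resistant cells. The fall was lost without line #3, #7 or #10 (adjusted p up to 0.0197) and the rise without line #3 (0.0153), and both in the compared states alone with or without the block (up to 0.0191). Krt19, another epithelial marker, was lower in P12 than in resistant cells in lines #3, #4, #6 and #7 and higher in #9 and #10. Cdh1 was higher in P12 than in resistant cells in every line. Krt8, Krt18 and Cdh1 were called lower in resistant cells with the block (adjusted p = 0.00818, 0.00839 and 0.000175). Cdh2, N-cadherin, rose by 1.77 (SE 0.31, adjusted p = 0.000894) in resistant cells as 1 of 9 mesenchymal markers (median 1.78), and Col1a1 was called with the block (adjusted p = 0.00363). Of the other 8, 6 had a positive and 2 a negative log2 fold change without a call in the first fit, and Vim was lower in resistant than in parental cells in 5 of 6 lines, at -0.61 (SE 0.38, adjusted p = 0.304). The rise of Cdh2 was not called in a fit of the compared states alone with the block (adjusted p = 0.0153). In P12 against resistant cells Cdh2 fell by 1.52 (SE 0.31, adjusted p = 0.00546), not called without line #3, #6, #7 or #10 (up to 0.0382) nor in the compared states alone (0.0323, and 0.0509 with the block). Other mesenchymal markers went both ways there. Vim was higher in P12 than in resistant cells in 4 of 6 lines, and Fn1 in lines #3, #4 and #7 but not in #6, #9 and #10. The epithelial markers summed to 18363, 248016 and 283578 in parental and 1693, 62680.1 and 210019 in resistant cells, and the mesenchymal markers to 64388, 141501 and 258581 and 140230.0, 271655 and 838950.0, with line #9 lowest for the former and highest for the latter in both states. In P12 cells the sums were 3930, 52763 and 209595 for the epithelial and 77153, 218470 and 629432 for the mesenchymal markers. Krt8 and Fn1, encoding fibronectin, were the most abundant of these by mean over the 21 samples. Of 2 acinar markers tested 0 were called in the limma fit, with 1 at an unadjusted p under 0.05 and a median of -1.69. Acinar markers summed to 42.7, 128 and 283 in parental and 0, 75.3 and 522 in resistant cells, mostly from the elastase gene Cela1, and Prss2, a trypsinogen gene, was called higher in P12 than in resistant cells with the block (adjusted p = 0.00918). The part of these shifts in the class I values was not tested.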

How the data were processed

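RNA of 21 samples from 6 cell lines was sequenced as stranded mRNA libraries. The authors demultiplexed reads with CASAVA 2.17 or bcl2fastq 2.19, trimmed adapters with Skewer, quantified transcripts with salmon 0.12 against mm10, summed them to genes with TXImport and normalized them with DESeq2 1.18. The deposited values are signal values, estimated gene counts that the authors normalized, and whole read counts could not be recovered from them. On multiples of a step, within a tolerance of 0.02 of the step, lay 43.1% to 68.5% of the low values, from which depth was estimated.

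Values were compared as log2(normalized count + 1) with limma 3.58.1 in R 4.3.3, with all 21 samples and 4 states in 1 fit, no covariate, empirical Bayes with a trend, and Benjamini-Hochberg adjustment over the 19300 genes that reached 10 in 3 samples or more. The tests are two-sided. The fit was tested on simulated data, which were drawn without differences between lines and so do not bear on pairing by line. Pairing by line, taken from the line numbers in the labels, was checked by the correlation between samples after state means were removed, with a mean r of 0.24, 0.46 and 0.32 within lines for resistant minus parental, P12 minus resistant and P12 minus parental, against -0.046, -0.09 and -0.064 between lines. Alternatives covered the pseudocount (0.5 and 8), the filter, upper-quartile scaling, the block, no trend, an adjusted p under 0.05, the compared states alone, and each line left out. A fit of the compared states alone with the block, and one without P5 of lines #7 and #9, were chosen after seeing the data.

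Named genes were the 10 members, up to 5 called genes per list with the smallest adjusted p, and the genes with the highest Pearson r to the members' mean z-score, to Cd274 or to Nlrc5; genes called with the block alone, and Csf1r, Kdr, Cd74, H2-Aa and H2-Ab1, were named after their values were seen. Members and lists were chosen with earlier results of these data known. Promoter windows are from RefSeq, GRCm38.p6, and the motif of the interferon-stimulated response element was added after the windows had been seen. Figures were drawn with matplotlib 3.10.9.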

Additional observations from a re-analysis of the deposited data

Results flagged for a closer look

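In 20 of 147 groups of 6 samples examined, over the named genes and the marker genes, the highest or the lowest sample lay far from the other 5 by Dixon's 95% limit. Chance does this in about 1 in 20 independent groups. These groups share samples, and some genes were picked for likeness to the members, so that rate is no measure for this count. Of the 20 outlying samples, 18 were line #9. Among the class I genes, resistant cells of line #9 were lowest for H2-K1 at 614 normalized counts, Tapbp at 1169.7 and Psmb8 at 0.922. For epithelial genes line #9 was lowest with 546 in parental, 544 in resistant and 223 in P12 cells for Krt8. For Krt18 its values were 11364, 79.2 and 142 in these states, and for Krt19 3074, 11.3 and 50.1. It was also lowest for Cdh1 in parental cells, at 816. In resistant cells line #9 was lowest among genes picked for likeness, with 3682 for Srgap2, 4968 for Csrp1, 1149 for Vps13a and 45.6 for Map3k6, and highest for Irf8 at 5.58. Line #10 was highest for Cdh5 in resistant cells at 1.61 and for Rnf112 in parental cells at 0.669, both under the floor of 3 reads.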

How the results depend on the processing

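Called genes numbered 1023, 412, 22, 73 and 5 for resistant minus parental, P12 minus resistant, P12 minus parental, P5 minus resistant and P5 minus parental. In that order, the block gave 2017, 872, 101, 118 and 5, an adjusted p under 0.05 gave 2190, 947, 116, 376 and 9, and leaving out 1 line gave 450 to 1237, 132 to 467, 4 to 68, 23 to 48 and 1 to 5. Fits of the compared states alone gave 882, 93, 12, 14 and 1 in the same order. With the block as well they gave 722 and 291, and 3, 0 and 0 for the last 3 comparisons, with fewer samples. Leaving out P5 of lines #7 and #9 gave 14, 5 and 1 for these last 3, and a mean of at least 100 gave 5 for P12 minus parental and 3 for P5 minus parental.

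Of the 10 genes described, 3 were called for resistant minus parental, against 7 with the block, 7 at an adjusted p under 0.05, 5 in the compared states alone, 3 in these with the block and 2 to 5 without 1 line. For P12 minus resistant 1 was called, against 2, 2, 0, 1 and 0 to 2. For P5 minus resistant 1 was called, against 0 with no filter, with the block, with no trend, in the compared states alone with or without the block, without P5 of lines #7 and #9 and without any 1 line. Over all comparisons and alternatives, 782 of 840 log2 fold changes of these genes kept their direction and side of the threshold, 21 lost the call, 18 gained it and 19 changed sign. Among other genes with the smallest adjusted p in their lists, 1 of 10 calls in the pathway lists was kept in all alternatives (Ifi35), against 0 of 6 in the cell markers and 10 of 10 in the ERK output genes, and 0 changed sign.

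None of the values that changed sign had been called. Without 1 line, Cd274 ranged over -0.25 to 0.011 for resistant minus parental and H2-D1 over -0.16 to 0.19 for P12 minus parental. For P5 minus resistant Nlrc5 ranged over -1.53 to 0.29, and for P5 minus parental Psmb8 over -0.59 to 3.04, Psmb9 over -0.27 to 2.22 and Nlrc5 over -0.075 to 2.09. With the block Nlrc5 became 0.47 for P5 minus resistant (0.82 in the compared states alone) and H2-D1 0.085 for P5 minus parental. Without P5 of lines #7 and #9, which leaves 1 P5 sample that is assumed to vary like the other states, Psmb8, Nlrc5 and Cd274 became 0.40, 1.92 and 0.37 for P5 minus resistant, and H2-K1, H2-D1 and Cd274 0.49, 0.028 and 0.28 for P5 minus parental. The cause of these sign changes was not tested, and some of the fits held fewer samples. Depth limits Psmb8 and Psmb9, which were at or under the floor in 5 of 6 parental samples.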
